A study of Mus musculus with 19 samples.

Results

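The genes described here are the receptor side of interferon signalling: 4 receptor subunits, *Ifnar1*, *Ifnar2*, *Ifngr1* and *Ifngr2*, 3 Janus kinases, *Jak1*, *Jak2* and *Tyk2*, and 3 suppressors of cytokine signalling, *Socs1*, *Socs2* and *Socs3*. They were chosen by gene name in the GENCODE M21 annotation and are 10 of the 41128 genes in the count table. All 10 had enough counts to be tested. Libraries came from untreated C57BL/6 mice aged 3 months, either germline SCA17 knock-in (KI) or wild type (WT), with cerebellum, striatum and prefrontal cortex sampled in each genotype. The cerebellum had 3 WT and 4 KI libraries, and the striatum and the prefrontal cortex each had 3 libraries per genotype. SCA17 is spinocerebellar ataxia 17, a disease in which the TATA box-binding protein carries an expanded polyglutamine tract, and the KI allele expresses such a protein from the mouse's own *Tbp* gene in every cell. The question was whether the receptors, kinases and inhibitors changed together with the genes that interferon induces.

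Type I interferons bind a receptor made of IFNAR1 and IFNAR2, and interferon gamma binds one made of IFNGR1 and IFNGR2. TYK2 sits on IFNAR1, JAK1 on IFNAR2 and IFNGR1, and JAK2 on IFNGR2. The bound kinases phosphorylate STAT proteins, which enter the nucleus, with IRF9 for type I signals, and switch on antiviral genes through DNA elements called ISRE and GAS. SOCS1 and SOCS3 are themselves induced by STATs and block the kinases, and SOCS2 is best known as a brake on growth hormone signalling. Most cells of the brain carry these receptors, and microglia, the resident macrophages, respond strongly.

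Among the members with a promoter entry, only *Socs1* held letters like those of an ISRE. Its sequence is shown beside those of *Ifit1* and *Ifit3*, which encode antiviral RNA-binding proteins. The stretches are RefSeq promoter sequence (GRCm38.p6), read 5′ to 3′ along the gene, with matches to the ISRE-like letters GAAANNGAAA, or TTTCNNTTTC on the other strand, in capitals. *Socs1* lies at chr16:10785584-10785639 on the minus strand, *Ifit1* at chr19:34640765-34640833 and *Ifit3* at chr19:34583353-34583436, both on the plus strand, and no annotated exon overlaps any of these stretches.
Socs1: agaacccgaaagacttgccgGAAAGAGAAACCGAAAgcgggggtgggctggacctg
Ifit1: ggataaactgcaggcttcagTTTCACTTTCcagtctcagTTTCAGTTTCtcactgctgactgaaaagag
Ifit3: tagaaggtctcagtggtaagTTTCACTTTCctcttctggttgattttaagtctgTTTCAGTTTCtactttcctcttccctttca

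In *Socs1* the 2 matches overlap and begin 83 and 77 bases before the start site. In *Ifit1* they begin 104 and 85 bases before it, and in *Ifit3* 156 and 122. The windows searched ran from 250 bases before to 50 bases after each start site, and 9 of the 10 members had an entry, all but *Socs2*. The ISRE-like letters were found in 1 of these 9, *Socs1*, against 13 of 28 type I interferon targets with an entry and 3.44% of all 32851 windows. A match is a run of letters and not a measured binding site.

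The GAS-like letters TTCNNNGAA, which read the same on both strands, were found in 3 of the 9 members, *Ifnar1*, *Ifnar2* and *Socs3*, and in 8.3% of all windows. Of the targets with an entry, 6 of 28 for type I interferon and 7 of 19 for interferon gamma held them. The matches are shown in capitals for *Socs3* (chr11:117969492-117969540, minus strand, within an intron of a longer annotated *Socs3* transcript) and *Ifnar2* (chr16:91372549-91372597, plus strand). *Irf1*, the textbook GAS-bearing target (chr11:53769904-53769952, plus strand), is given for comparison.
Socs3: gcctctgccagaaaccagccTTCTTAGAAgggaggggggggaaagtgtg
Ifnar2: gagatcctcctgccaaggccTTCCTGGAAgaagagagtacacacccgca
Irf1: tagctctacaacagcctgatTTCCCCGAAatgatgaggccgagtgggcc

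They begin 154, 214 and 90 bases before the start sites of *Socs3*, *Ifnar2* and *Irf1*, and that of *Ifnar1* lies 5 bases before its own. No match to either motif was in the windows of *Ifngr1*, *Ifngr2*, *Jak1*, *Jak2* or *Tyk2*.

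Libraries held between 10639110 and 17431284 counts. Levels are given as CPM, the usual read count scaled to the total of its library, after TMM normalisation, and differences as log2 fold changes from an edgeR quasi-likelihood fit over all 19 libraries, called when the p adjusted over all 16841 tested genes was under 0.05. The libraries are bulk tissue, so fewer cells of a type and less RNA per cell cannot be told apart. The tissue labels were borne out by markers: summed striatal medium spiny neuron markers were 5099 to 10830 CPM in the striatum and at most 1059 elsewhere, and summed Purkinje cell markers were 4303 to 7436 CPM in the cerebellum and at most 1189 elsewhere. Summed choroid plexus markers varied between libraries, between 1571 and 9052 CPM across the striatum and between 21.2 and 4990 CPM across the cerebellum, and their part in the results was not tested. In the prefrontal cortex the medium spiny neuron sums also varied, from 181 to 1059 CPM in KI and from 274 to 821 CPM in WT libraries. The part of this variation was not tested either.

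No member passed the test between KI and WT in any region. For the cerebellum 0 of 10 members were called, where 0.831% of all tested genes were. The striatal count was 0 of 10 against 0.582%, and the prefrontal count 0 of 10 against 0.107%. Averaged over the 3 regions it was also 0 of 10, against 1.35% of all genes. With so few genes called in all, a count of 0 among 10 is near the background, so the intervals below carry the result. The edgeR test gave an unadjusted p under 0.05 to 0 members in each of these comparisons, where 10.1%, 8.12%, 5.93% and 12.3% of all genes had one, and DESeq2 on the same groups likewise called 0 members. The KI libraries all lay on one side of the WT libraries for 0 members in the cerebellum, where 12.3% of genes did so, for 0 in the striatum (14.1%) and for 2 in the prefrontal cortex (8.69%). Among the 7 receptor subunits and kinases the 95% confidence intervals together ran from -0.48 to 0.43 for the cerebellum, from -0.35 to 0.39 for the striatum and from -0.45 to 0.44 for the prefrontal cortex. As ratios to the WT level these bounds are 0.716 and 1.35, 0.785 and 1.31, and 0.731 and 1.36.

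**Figure D1:**
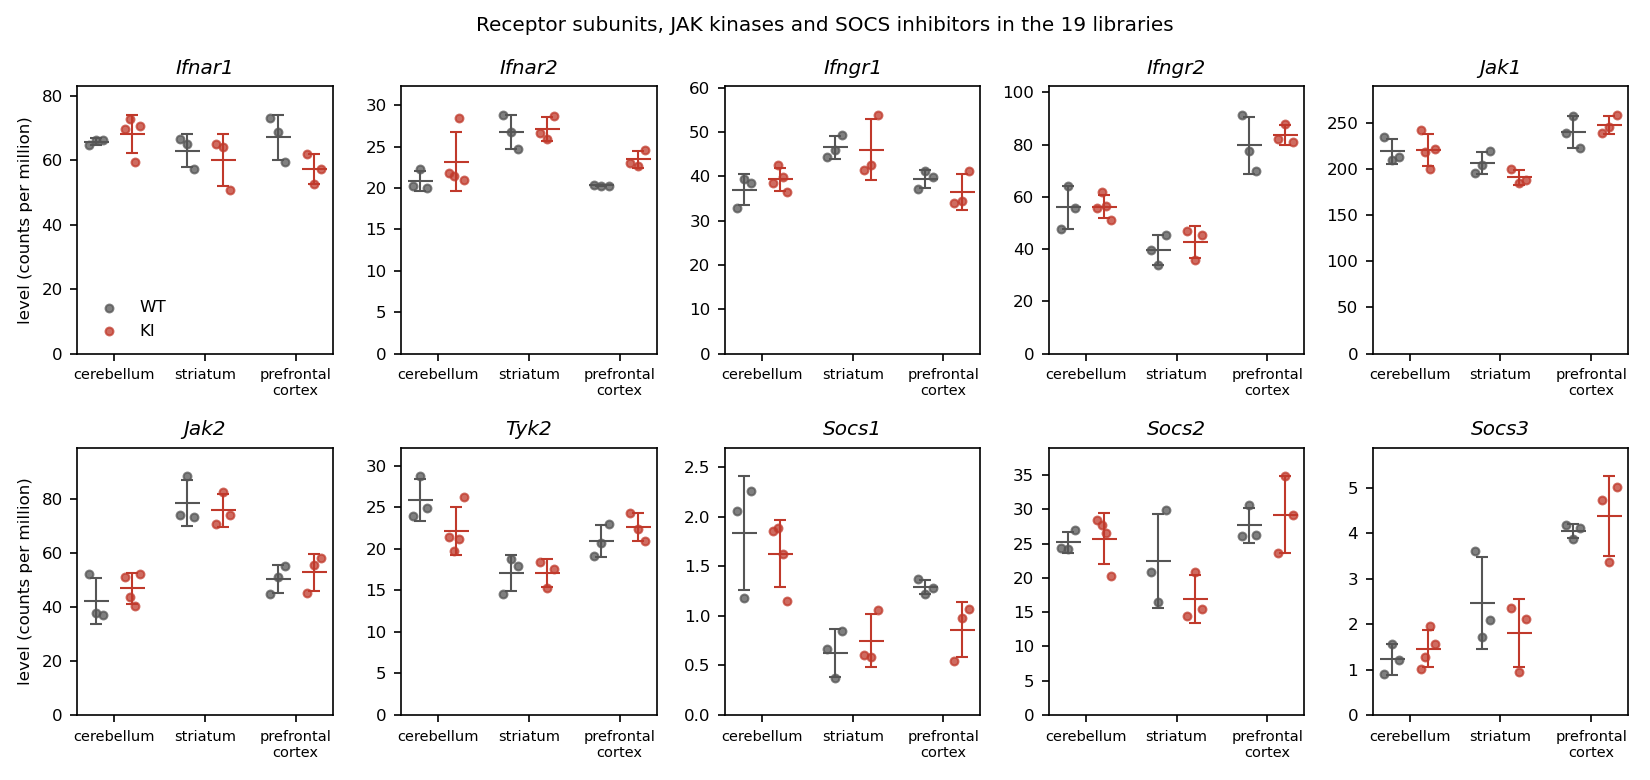
Level of each of the 10 genes in CPM (vertical axis, from 0, its own scale in each panel) in the 3 regions, with 1 point per library, WT in grey and KI in red, and the mean with its SD as bars. The genotypes overlap in every panel and region except *Ifnar2* and *Socs1* in the prefrontal cortex, while *Jak2* is highest in the striatum and *Ifngr2* in the prefrontal cortex in both genotypes.

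Neither subunit of the type I receptor passed the test in any region. *Ifnar1* (chr16:91485238-91507441, plus strand) encodes the subunit that TYK2 binds. Its WT cerebellum libraries gave 64.7, 66.5 and 66.5 CPM and its KI libraries 69.7, 72.7, 59.6 and 70.8 CPM. The KI range enclosed the WT range, and the log2 fold change was 0.05 ± 0.10 (SE).

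In the striatum, *Ifnar1* stood at 66.8, 65.1 and 57.3 CPM in WT and at 65.2, 64.3 and 50.8 CPM in KI mice. In the prefrontal cortex the WT libraries gave 73.2, 68.9 and 59.4 CPM and the KI libraries 62.1, 52.7 and 57.5 CPM. The highest KI library was above the lowest WT library, so the groups overlapped. The striatal log2 fold change was -0.07 ± 0.11 (SE) and the prefrontal one -0.23 ± 0.11. The latter had the smallest unadjusted p among the 10 members in that region, 0.0524, and an adjusted p of 0.848.

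*Ifnar2* (chr16:91372783-91405589, plus strand) encodes the subunit with the long signalling tail. It shares 315 exon bases with the predicted gene *Gm21970* on the same strand, and how reads there were assigned is uncertain. In the prefrontal cortex its WT libraries gave 20.4, 20.3 and 20.3 CPM and its KI libraries 23.0, 22.7 and 24.6 CPM. Every KI library was above every WT library, a pattern that 4.38% of all genes showed there. The log2 fold change was 0.20 ± 0.11 (SE), with an adjusted p of 0.893.

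In the cerebellum *Ifnar2* was at 20.2, 22.3 and 19.98 CPM in WT and at 21.8, 21.4, 28.5 and 20.98 CPM in KI libraries. A single KI library, replicate 3, accounted for the height of the KI mean. The log2 fold change was 0.15 ± 0.11 (SE), and without that library it was 0.04, with an adjusted p of 0.944. In the striatum the libraries gave 28.8, 26.8 and 24.7 CPM in WT and 26.6, 25.9 and 28.7 CPM in KI mice, a log2 fold change of 0.02 ± 0.11 (SE). Averaged over the regions, *Ifnar2* had a log2 fold change of 0.12 ± 0.06 (SE), with an unadjusted p of 0.0658 and an adjusted p of 0.443.

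The subunits of the interferon gamma receptor differed by less than the spread between libraries in every region. *Ifngr1* (chr10:19591949-19610229, plus strand) encodes the ligand-binding chain. It ranged from 32.9 to 39.5 CPM in WT and from 36.4 to 42.6 CPM in KI cerebellum, from 44.3 to 49.4 and from 41.5 to 53.9 CPM in the striatum, and from 37.3 to 41.2 and from 34.0 to 41.2 CPM in the prefrontal cortex. Its log2 fold changes were 0.09, -0.02 and -0.11 in that order, each with an SE of 0.11.

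*Ifngr2* (chr16:91547072-91565623, plus strand) encodes the chain that carries JAK2. The WT libraries gave 47.8, 64.3 and 55.9 CPM in the cerebellum, 39.8, 34.0 and 45.6 CPM in the striatum and 91.5, 77.6 and 70.1 CPM in the prefrontal cortex. The KI libraries gave 55.6, 61.9, 56.5 and 51.1 CPM, then 47.0, 35.8 and 45.4 CPM, then 82.3, 88.0 and 81.0 CPM in the same order of regions. The genotypes overlapped in each region, and the ranges of the 3 regions did not overlap in either genotype. The log2 fold changes between genotypes were 0.01 ± 0.12 (SE), 0.10 ± 0.14 and 0.07 ± 0.13.

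Among the kinases, *Jak1* had the smallest errors of the 10 members. *Jak1* (chr4:101152367-101265282, minus strand), which serves both receptor types, stood at 234, 210 and 213 CPM in WT and at 242, 219, 200 and 222 CPM in KI cerebellum. It was at 196, 204 and 219 CPM in WT and at 200, 185 and 188 CPM in KI striatum, and at 239, 258 and 223 CPM in WT and 240, 245 and 259 CPM in KI prefrontal cortex. No region separated the genotypes. The log2 fold changes were 0.01, -0.11 and 0.05, with SEs between 0.07 and 0.08, and the averaged effect had a 95% interval from -0.11 to 0.08.

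*Jak2* (chr19:29251828-29313080, plus strand) ranged from 37.0 to 52.1 CPM in WT and from 40.5 to 52.2 CPM in KI cerebellum. The ranges were 73.2 to 88.4 and 70.7 to 82.5 CPM in the striatum, and 44.8 to 55.2 and 45.1 to 58.0 CPM in the prefrontal cortex. The genotypes overlapped throughout, and the log2 fold changes were 0.15, -0.05 and 0.07, with SEs between 0.13 and 0.14.

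*Tyk2* (chr9:21104068-21131243, minus strand), the partner of IFNAR1, had the smallest unadjusted p of the 10 genes in the cerebellum. Its WT libraries gave 24.0, 28.8 and 24.9 CPM and its KI libraries 21.4, 19.7, 21.2 and 26.3 CPM. Replicates 1 to 3 of the KI group were below all WT libraries and replicate 4 was among them. The log2 fold change was -0.23 ± 0.12 (SE), with an unadjusted p of 0.082 and an adjusted p of 0.575. In the striatum and the prefrontal cortex the log2 fold changes were close to 0 and 0.11 ± 0.13. *Tyk2* shares 554 exon bases with *1700084C06Rik* on the opposite strand, and the library kit does not mark strand.

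The SOCS genes were less precisely measured, since *Socs1* and *Socs3* had few reads. *Socs1* (chr16:10782240-10785536, minus strand), the inhibitor with the paired ISRE-like letters shown above, was counted 5 to 34 times per library. In the prefrontal cortex it was at 1.37, 1.22 and 1.28 CPM in WT and at 0.545, 0.974 and 1.06 CPM in KI mice. Every KI library was below every WT library, as was so for 4.32% of all genes. The log2 fold change of -0.60 ± 0.38 (SE) had an adjusted p of 0.908 and a 95% interval from -1.399 to 0.19.

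In the cerebellum *Socs1* was at 2.06, 1.18 and 2.26 CPM in WT and at 1.86, 1.88, 1.62 and 1.15 CPM in KI libraries. In the striatum it was at 0.668, 0.372 and 0.850 CPM in WT and at 0.608, 0.586 and 1.06 CPM in KI libraries. The groups overlapped in both regions, with log2 fold changes of -0.16 ± 0.32 (SE) and 0.26 ± 0.40. The 95% interval in the striatum reached up to 1.103 on the log2 scale, so a rise of that size was within the error at this depth.

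*Socs3* (chr11:117966079-117970047, minus strand), which blocks signalling by gp130 cytokines as well as by interferons, was counted 13 to 78 times per library. The striatum gave 3.61, 1.71 and 2.09 CPM in WT and 2.37, 0.953 and 2.11 CPM in KI mice, with wide overlap. The log2 fold changes were 0.24 ± 0.35 (SE) for the cerebellum, -0.44 ± 0.35 for the striatum and 0.11 ± 0.33 for the prefrontal cortex.

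*Socs2* (chr10:95385362-95417180, minus strand) had the smallest unadjusted p of the members in the striatum. There the WT libraries gave 20.8, 16.5 and 30.0 CPM and the KI libraries 14.4, 20.9 and 15.5 CPM. The highest KI library matched the middle WT library. The log2 fold change was -0.41 ± 0.20 (SE), with an unadjusted p of 0.0614 and an adjusted p of 0.633, and summed medium spiny neuron markers were also lower there, at 5099 to 7389 CPM in KI against 9448 to 10830 CPM in WT libraries (0 of 8 markers called, and none at 0). Their part in the *Socs2* value was not tested. In the other regions its log2 fold changes were 0.03 ± 0.19 and 0.08 ± 0.20.

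**Figure D2:**
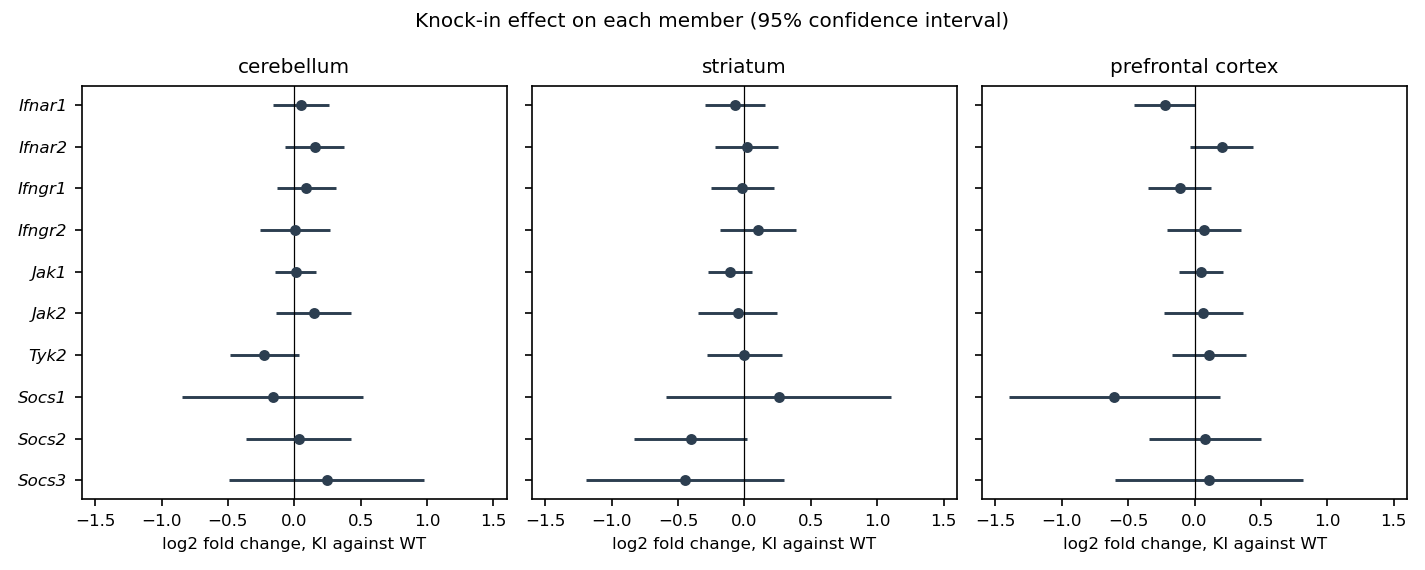
Log2 fold change of KI against WT (horizontal axis) for each of the 10 genes in the 3 regions, as a point with its 95% confidence interval from the edgeR fit. Every interval includes 0, and those of *Socs1* and *Socs3* are the widest, reaching from -1.399 to 1.103.

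The KI effect on a member was not shown to differ between regions. Between cerebellum and striatum 0 of 10 members passed a test of the difference in edgeR, where 0.0119% of all genes did, and between cerebellum and prefrontal cortex 0 of 10, against 0.0178%. Between striatum and prefrontal cortex the share was 0% of all genes. An unadjusted p under 0.05 was found for 0 members in each, where 6.69%, 6.12% and 4.41% of all genes had one. The values nearest to the threshold were between cerebellum and prefrontal cortex: *Ifnar1* with 0.28 ± 0.15 (SE, log2) and an unadjusted p of 0.0794, and *Tyk2* with -0.33 ± 0.18 and an unadjusted p of 0.0806. Both had an adjusted p of 0.871.

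The ligands of these receptors were at or near the limit of detection in both genotypes. Of 21 genes for type I, type II and type III interferons, 20 had 0 counts in all 19 libraries, *Ifnb1* and *Ifng* among them. The exception, *Ifnk*, had at most 3 counts in a library and 8 in all. A count of 0 allows a level of up to 0.172 to 0.282 CPM, depending on the library, which covers counting error alone. The interferon alpha genes are near-identical copies, and reads shared between them may not have been counted.

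The genes downstream of the receptors rose in the same libraries. Among 37 tested type I interferon targets, 29 rose in the cerebellum, 27 in striatum and 7 in prefrontal cortex, and none fell. Of all tested genes 0.831%, 0.582% and 0.107% were called either way. The list was chosen with earlier results of these data known, so its counts describe genes already expected to rise. Averaged over the regions, 36 of the 37 rose. That count was 35 to 36 when 1 library was left out and 24 to 36 over all alternatives. The median log2 fold changes of the 37 targets were 1.95, 1.80 and 1.29 in the 3 regions. The medians over all tested genes were 0.01, -0.01 and 0.00. The medians of the 4 receptor subunits were 0.07, 0.00 and -0.02, and those of the 3 kinases 0.01, -0.05 and 0.07. Those of the 3 SOCS genes, with their wide intervals, were 0.03, -0.41 and 0.08. The count of targets rested in part on single libraries: it was 18 and 16 in the cerebellum without WT replicate 2 or 3, 15, 15 and 16 in the striatum without KI replicate 3, WT replicate 2 or WT replicate 3, and 3, 2 and 2 in the prefrontal cortex without KI replicate 3, WT replicate 1 or WT replicate 2.

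*Ifit1*, whose promoter is shown above, is among the 5 targets named for the smallest p in the averaged effect. Its log2 fold change was above the list median in each region. It was at 2.51 to 5.78 CPM in WT and at 22.3 to 50.3 CPM in KI cerebellum, and at 2.82 to 4.67 and 33.7 to 68.1 CPM in the striatum. The genotypes did not overlap, and the log2 fold changes were 3.17 ± 0.38 (SE) and 3.60 ± 0.40, with edgeR adjusted p of 0.000257 and 0.000198. In the prefrontal cortex the ranges were 5.48 to 11.7 and 21.1 to 31.7 CPM, and the log2 fold change of 1.73 ± 0.37 did not pass, with an adjusted p of 0.123. *Oasl2*, *Ifi27l2a* and *Rtp4*, antiviral or interferon-induced genes too, passed in all 3 regions, with log2 fold changes between 1.86 and 4.46.

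Of 23 tested interferon gamma targets, 6 rose in the cerebellum, 6 in the striatum and 1, the guanylate-binding protein gene *Gbp3*, in the prefrontal cortex, with medians of 1.06, 1.17 and 0.74. The shares of all tested genes called either way were 0.831%, 0.582% and 0.107%, and this list too was chosen with earlier results known. *Gbp3* had log2 fold changes of 2.21, 2.13 and 1.64. Many of these genes also answer to type I interferon, so the lists do not separate the ligands.

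**Figure D3:**
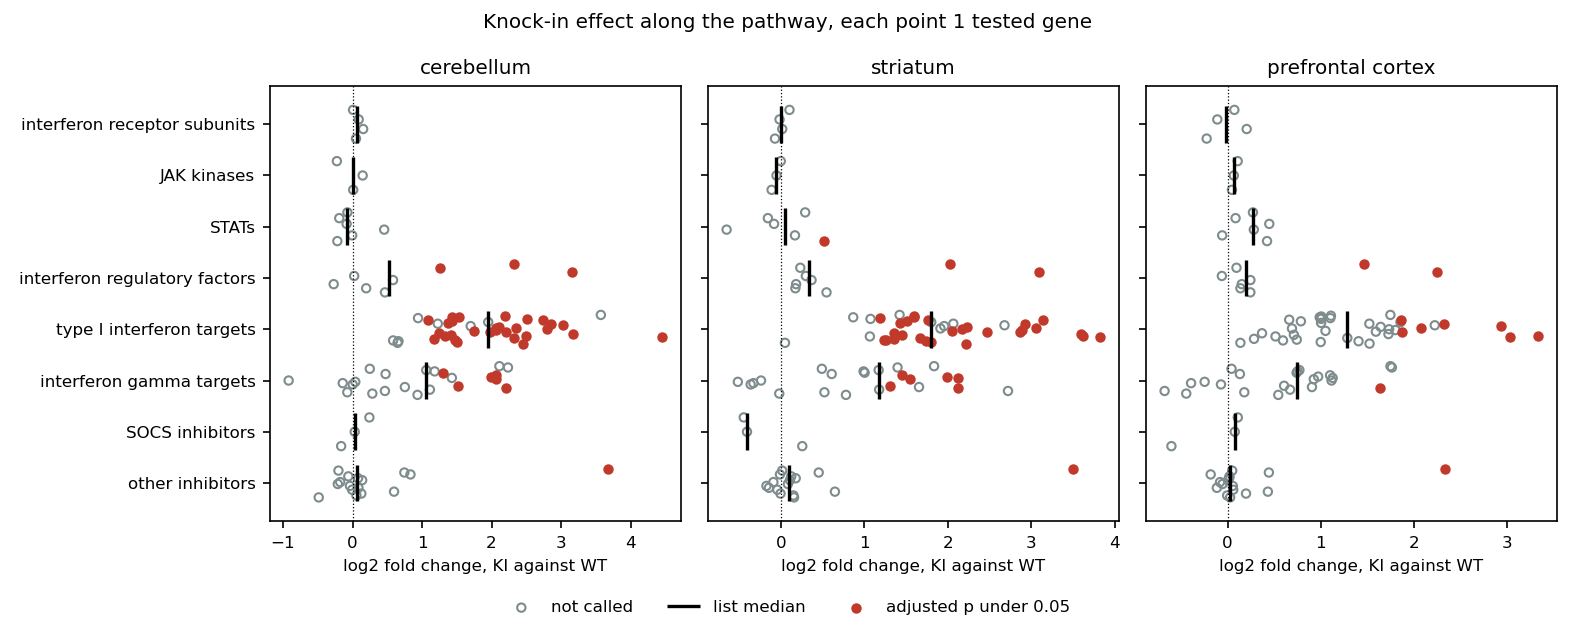
Log2 fold change of KI against WT (horizontal axis) for every tested gene of 8 lists, ordered along the pathway, in the 3 regions. Each point is 1 gene, filled red where its adjusted p was under 0.05, and the black bar is the list's median. Receptor subunits and kinases lie around 0, and SOCS genes have medians of 0.03, -0.41 and 0.08, all without a filled point. Type I targets have medians of 1.95, 1.80 and 1.29.

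Between the receptors and the targets stand the STATs and interferon regulatory factors, of which a minority passed the test in each region. *Stat2* passed the test in the striatum, where it rose by 0.52 ± 0.10 (SE, log2) with an adjusted p of 0.0209, and was at -0.22 ± 0.09 in the cerebellum and 0.42 ± 0.10 in the prefrontal cortex. The difference between the cerebellar and striatal effects, -0.74, did not pass, with an adjusted p of 0.119. Of the 6 STAT genes analysed here the other 5, with *Stat3* and *Stat5b* among them, were not called in any region.

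*Irf7*, the factor that amplifies interferon production, rose by 3.16, 3.10 and 2.25 on the log2 scale in the cerebellum, striatum and prefrontal cortex. *Irf9*, the DNA-binding partner of STATs in type I signals, rose by 2.33, 2.03 and 1.47. In the cerebellum *Irf8*, a factor of microglia and other myeloid cells, also rose, by 1.26 ± 0.21 (SE). *Irf1*, with its GAS-like letters shown above, had log2 fold changes of 0.47, 0.55 and 0.24 and passed in no region. Of the 8 tested factors, 3 rose in the cerebellum and 2 in each other region. The shares of all tested genes called either way were 0.831%, 0.582% and 0.107%. The median log2 fold changes of the 8 factors were 0.525, 0.334 and 0.198.

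The inhibitors did not move as a group. *Usp18*, which displaces JAK1 from IFNAR2 and is itself an interferon target, went from 1.21 to 2.42 CPM in WT to 16.3 to 32.5 CPM in KI cerebellum. Its log2 fold changes were 3.67 ± 0.39 (SE), 3.49 ± 0.39 and 2.33 ± 0.38 over the 3 regions, with adjusted p of 0.000126, 0.000198 and 0.0158. The other 15 inhibitors outside the SOCS family, phosphatases, PIAS proteins and ubiquitin ligases in the main, passed in no region. *Ptpn11*, a phosphatase that acts on STATs and kinases, was at 0.08, 0.18 and 0.02, and *Pias4* at -0.18, -0.09 and -0.08.

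Other members of the same families did not follow the targets. Of *Jak3*, *Cish*, *Socs4*, *Socs5*, *Socs6* and *Socs7*, 0 of 6 passed in any region, and their log2 fold changes lay between -0.39 and 0.37. *Il10rb*, the receptor chain shared by interferon lambda and interleukin 10, was at 0.14, 0.03 and -0.12. A related chain, *Il20rb*, fell in the cerebellum, from 187 to 232 CPM in WT to 53.9 to 71.6 CPM in KI libraries, by 1.83 ± 0.15 (SE) on the log2 scale, with an adjusted p of 9.44e-06. It was under 1.1 CPM in all libraries of the other regions. Summed Purkinje cell markers were lower in the same KI libraries, at 4303 to 6112 CPM against 7024 to 7436 CPM, with 1 of 8 called and none at 0. Their median log2 fold change was -0.47, and their part in the *Il20rb* value was not tested.

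Among 22 receptors of other cytokines and hormones that use JAKs, 0 rose and 1 fell in the cerebellum, and 0 passed in the other regions. Averaged over the regions, 1 rose and 1 fell. The gene that fell in the cerebellum was *Epor*, the erythropoietin receptor, from 8.98 to 10.9 CPM in WT to 4.29 to 7.04 CPM in KI libraries. *Il6st*, which encodes gp130, was at 0.20, 0.02 and -0.03. Of 16 targets of STAT3 and STAT5, 0 passed in any region, and 1 rose in the effect averaged over the regions. The acute-phase gene *Serpina3n* had the largest cerebellar log2 fold change on that list, 4.10 ± 1.00 (SE), with an adjusted p of 0.0691. It rested on KI replicates 1 and 2, at 52.6 and 44.3 CPM, while replicates 3 and 4 were at 4.48 and 5.08 CPM and the WT libraries at 0.721 to 2.57 CPM.

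Of the cell type markers, those of microglia were higher in the KI cerebellum, where the targets were higher too. Of 18 microglia markers, 13 rose there, and their summed level was 223 to 231 CPM in WT against 357 to 474 CPM in KI libraries, with none at 0. In the striatum 1 of 18 rose, and in the prefrontal cortex 0 did, with sums of 969 to 1037 CPM in WT and 902 to 1101 CPM in KI mice. The part of microglia in the members' values was not tested. Of the astrocyte, oligodendrocyte, endothelial and pericyte markers, 0 genes rose and 1, an astrocyte marker in the cerebellum, fell in any region. Summed astrocyte markers were nevertheless lower without overlap in KI libraries of the cerebellum, at 6073 to 7690 CPM against 7808 to 8143 CPM in WT, and of the prefrontal cortex, at 3773 to 4572 CPM against 4736 to 5231 CPM. Summed pericyte markers were so in the striatum, at 227 to 231.9 CPM against 233.5 to 259.7 CPM. The other sums of these 4 cell types overlapped between genotypes, and their part in the members' values was not tested.

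Levels were compared between members per kb of exon, in WT mice. *Jak1* was the most abundant in each region, with 30.3 CPM per kb for the cerebellum, 28.5 for the striatum and 33.2 for the prefrontal cortex, and no other member's range reached it. In the cerebellum *Ifngr2* (14.9) and *Ifngr1* (13.0) followed with overlapping ranges, then *Ifnar1* (11.1), *Jak2* (8.41), *Ifnar2* (6.26), *Tyk2* (3.77) and *Socs2* (2.64), each separate from the next. *Socs1* (0.630) and *Socs3* (0.425) were lowest and overlapped.

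In the striatum the order after *Jak1* was *Ifngr1* (16.3 CPM per kb) and *Jak2* (15.6), which overlapped, then *Ifnar1* (10.6) and *Ifngr2* (10.6), which overlapped, then *Ifnar2* (8.04). *Tyk2* (2.49) and *Socs2* (2.35) overlapped, and *Socs3* (0.853) and *Socs1* (0.217) were lowest and apart. In the prefrontal cortex *Ifngr2* (21.2) came after *Jak1*, followed by *Ifngr1* (13.8), *Ifnar1* (11.3) overlapping *Jak2* (10.0), *Ifnar2* (6.11), *Tyk2* (3.06) overlapping *Socs2* (2.90), *Socs3* (1.402) and *Socs1* (0.444). The subunits of each receptor were thus unequal at the RNA level in most regions, with more *Ifnar1* than *Ifnar2* in all 3.

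**Figure D4:**
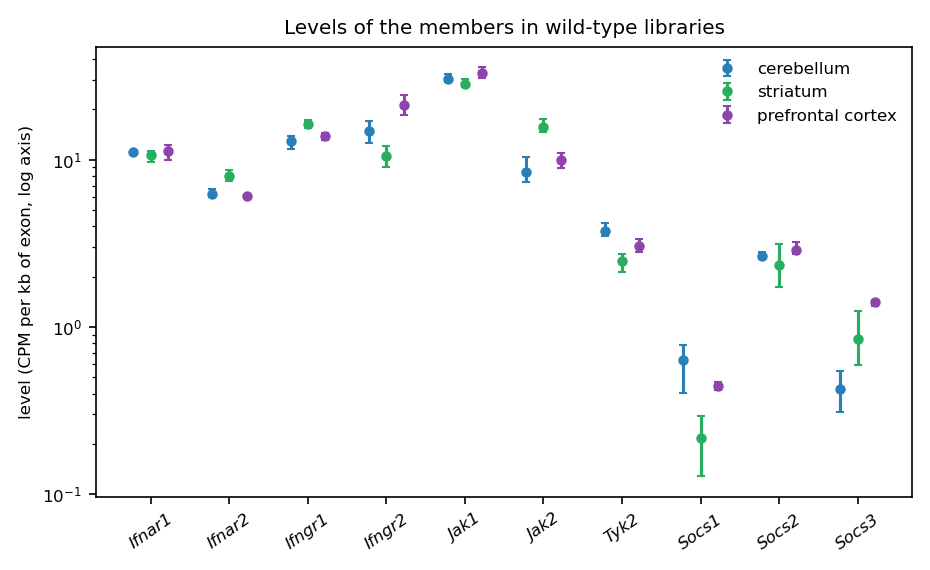
Mean level of each gene in the WT libraries in CPM per kb of exon (vertical log axis) in the 3 regions, with bars from the lowest to the highest library. *Jak1* is highest in each region, near 30 CPM per kb, and *Socs1* and *Socs3* are lowest; *Jak2* and *Ifnar2* stand highest in the striatum and *Ifngr2* and *Socs3* in the prefrontal cortex.

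Several members differed between regions in WT mice, as did a large share of all tested genes. Between the cerebellum and the striatum 7 of 10 members were called, beside 56.5% of all tested genes. *Socs1*, *Tyk2* and *Ifngr2* were higher in the cerebellum, by 1.53 ± 0.38 (SE, log2), 0.60 ± 0.13 and 0.49 ± 0.14, and *Jak2*, *Socs3*, *Ifnar2* and *Ifngr1* were lower, at -0.89 ± 0.14, -1.01 ± 0.37, -0.36 ± 0.11 and -0.33 ± 0.11. The call of *Ifngr1* was lost without cerebellum WT replicate 1 or striatum WT replicate 3 (adjusted p of 0.092 and 0.0536), and that of *Socs3* without cerebellum WT replicate 1, cerebellum WT replicate 3 or striatum WT replicate 1 (0.104, 0.0629 and 0.172).

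Between the cerebellum and the prefrontal cortex 2 of 10 members were called, fewer than the 52% of all tested genes. *Ifngr2* was lower in the cerebellum, at -0.51 ± 0.13 (SE, log2), and so was *Socs3*, at -1.72 ± 0.36. *Jak2*, at -0.25, and *Tyk2*, at 0.30 with an adjusted p of 0.0621, passed only under some alternatives. *Jak2* did so without cerebellum WT replicate 1 (-0.43, adjusted p of 0.0185). *Tyk2* did so without cerebellum KI replicate 4 or prefrontal cortex WT replicate 3 (0.0439 and 0.0454) or with genotype and number as a replicate block (0.0282). That block joins cerebellum KI replicate 1 (924 *Xist* and 2 Y-gene counts) with prefrontal cortex KI replicate 1 (4 and 2660), which cannot be 1 mouse.

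Between the striatum and the prefrontal cortex 4 of 10 were called, beside 30.5% of all tested genes. *Ifngr2* was lower in the striatum, at -1.002 ± 0.14 (SE, log2, adjusted p of 2.78e-05), and *Jak2* and *Ifnar2* were higher, by 0.64 ± 0.14 and 0.40 ± 0.11. *Jak1* was lower by a small margin, at -0.22 ± 0.08, with an adjusted p of 0.0429. That call was lost with the same-numbered libraries of both regions as a replicate block (adjusted p of 0.105) and in 11 of the 19 fits that left out a library, with adjusted p of up to 0.193 without striatum WT replicate 1. *Socs1* missed the threshold, at -1.03 ± 0.39, and passed without striatum WT replicate 3 (-1.27, adjusted p of 0.0421), without cerebellum WT replicate 2 or prefrontal cortex KI replicate 1 (0.0468 each) and without striatum KI replicate 3 (0.0495). *Socs2* and *Socs3* passed without striatum WT replicate 3 (-0.55, adjusted p of 0.0438) and WT replicate 1 (-1.08, adjusted p of 0.0452).

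The genes whose levels ran most like a member's over the 19 libraries followed these regional patterns. The highest correlations of log2 CPM were those of *Ifngr2* with *Faah* (Pearson r of 0.976), *Shank1* (0.970) and *Cux2* (0.968). *Jak2* ran most like *Kdm3a* (0.940), *Scrt2* (0.939) and *Carhsp1* (0.935), *Jak1* most like *Tmem30a* (0.919), *Katnal1* (0.909) and *Clstn1* (0.905), and *Socs3* most like *Nav3* (0.920), *Dyrk2* (0.919) and *Itga8* (0.912). *Ifnar1*, the member with the least regional difference, had no gene above 0.836 (*Ppp1r10*), then *Hddc3* and *Fanci*. The nearest for the others were *Ascc1*, *Gm16090* and *Hist2h3c2* for *Ifnar2*, *Pllp*, *Dhrs7* and *Aldh3b1* for *Ifngr1*, *Cdc42se1*, *Taok3* and *Tmed8* for *Tyk2*, *Rgs16*, *Crhr1* and *Wdr61* for *Socs1*, and *Fbxw2*, *Capn1* and *Arl1* for *Socs2*, with r of at most 0.913. The 19 libraries share regions and genotypes, so these are descriptions of the libraries.

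Between members the strongest correlations over the same libraries were *Ifngr2* with *Jak1* (r of 0.771), *Jak2* with *Tyk2* (-0.743) and *Jak2* with *Socs1* (-0.717). The subunits of one receptor did not run together: *Ifnar1* with *Ifnar2* had r of -0.449 and *Ifngr1* with *Ifngr2* -0.522.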

How the data were processed

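RNA of 19 libraries was prepared with the SMART-Seq v4 and Nextera XT kits, which do not mark strand. The submitters' processing notes name bcl2fastq 2.17.1.14, STAR 2.5.2b, HTSeq, DESeq2 1.10.1 and GRCm38.p3, with no role given. The authors deposited raw read counts per Ensembl gene, which were used here, and a signal table of these counts over a DESeq2 size factor per library, used only for the order of levels. Gene names came from GENCODE M21 (40254 of 41128 identifiers matched). The targeted *Tbp* gene is not deleted, so its counts do not check the labels.

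Counts were fitted in R 4.3.3 with edgeR 4.0.16 (filterByExpr, 16841 genes, TMM, 13 residual degrees of freedom, Benjamini-Hochberg adjustment, log2 CPM with a prior count of 2), and DESeq2 1.42.0 was an alternative. The steps were tested on simulated data. The labels do not say whether libraries of different regions came from the same mice. By *Xist* and Y-gene counts, same-numbered striatum and prefrontal cortex libraries matched in sex in 6 of 6 pairs. Those of cerebellum and striatum matched in 3 of 6, so not every same-numbered cerebellum library shares a mouse with the other regions. Deviations of same-numbered striatum and prefrontal cortex libraries correlated (r from 0.233 to 0.368 in 6 of 6 pairs), so p-values of the effect averaged over regions may be too small. For the same reason, p-values of contrasts between striatum and prefrontal cortex may be too large in the main fit. Correlations of cerebellum libraries with another region ran from -0.104 to 0.163. Those of KI and WT libraries of 1 region ran from -0.245 to 0.172, with 2 of 9 pairs over 0.1, the limit set for pairing. No pair of replicates agreed within sampling noise. Intervals and floors cover counting error alone where no replicate enters.

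The members and all gene lists were chosen with earlier results of these data known. Of each other list at most 5 genes were named, those with the smallest p in the averaged effect, besides *Stat2*, *Irf9*, *Irf7*, *Irf1*, *Usp18*, *Il10rb*, *Jak3*, *Cish* and *Il6st*. *Ifnk*, *Ifnb1* and *Ifng* were named after their values were seen. A gene of the pathway lists is not reported here. *Gbp5* and *Gbp6* had no name match and were not analysed here.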

Additional observations from a re-analysis of the deposited data

Results flagged for a closer look

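In the 4 KI cerebellum libraries, the only group of that size, 7 of 56 named genes had 1 library farther from the rest than Dixon's limit for 4 samples allows, where chance alone gives about 1 in 20. Among the members this was *Ifnar2*, with 28.5 CPM in replicate 3 against 20.98 to 21.8 CPM in the others. Replicate 3 was also apart for *Cish*, at 8.57 CPM against 2.78 to 3.55 CPM, and for *Socs5*, at 38.2 CPM against 48.6 to 49.4 CPM. Replicate 1 was apart for *Igf1*, at 13.5 CPM against 8.76 to 9.37 CPM, and for *Irf8*, at 5.69 CPM against 3.59 to 3.81 CPM. Replicate 4 was apart for *Csf2rb*, at 0.423 CPM against 0.831 to 0.896 CPM, and for *Stat5b*, at 63.5 CPM against 53.1 to 54.0 CPM.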

How the results depend on the processing

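Under 28 alternatives, 110 values in all, 0 members were called between KI and WT in any region or on average, with a smallest unadjusted p of 0.0108 and a smallest adjusted p of 0.296. Count depth limits *Socs1* and *Socs3*, and *Socs1* has no value with at least 10 counts in every library or where a region alone left it under the filter.

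The count of type I targets that rose in the prefrontal cortex, 7, was 17 by DESeq2, 14 by DESeq2 with each region alone, 0 by edgeR with each region alone (where it was 14 in the striatum), 11 with no filter, 3 with 10 counts in every library and 4 with the replicate block within regions. Leaving out a library gave 16 to 31 in the cerebellum, 15 to 28 in the striatum and 2 to 8 in the prefrontal cortex.

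KI values that were not called changed sign as follows, and the cause was not tested. With a replicate block, within regions or across regions and genotypes, *Socs1* in the cerebellum became 0.0059 or 0.0072 and *Tyk2* in the striatum 0.0021 or 0.0016, and the block changed no call between KI and WT. *Tyk2* in the striatum was also 0.015 and 0.012 by edgeR and DESeq2 with each region alone, 0.010 with no filter, 0.0035 with 10 counts in every library and 0.016 with the *Xist* to Y ratio as a covariate for sex. That covariate gave 0.027 for *Ifngr1* in the striatum and -0.0017 for *Ifngr2* in the cerebellum. *Ifngr1* in the striatum was 0.00055 by edgeR with each region alone, and *Ifngr2* in the cerebellum -0.00046 with 10 counts in every library.

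Leaving out each library in turn gave log2 ranges across 0 for these members. In the cerebellum they were -0.0934 to 0.122 for *Ifngr2*, -0.0383 to 0.0630 for *Jak1*, -0.401 to 0.0121 for *Socs1* and -0.0200 to 0.129 for *Socs2*. In the striatum they were -0.134 to 0.0373 for *Ifnar1*, -0.0343 to 0.0761 for *Ifnar2*, -0.146 to 0.0529 for *Ifngr1*, -0.118 to 0.0430 for *Jak2*, -0.0734 to 0.521 for *Socs1* and -0.101 to 0.0740 for *Tyk2*. In the prefrontal cortex they were -0.0111 to 0.184 for *Ifngr2*, -0.0030 to 0.102 for *Jak1*, -0.0104 to 0.171 for *Jak2* and -0.0803 to 0.212 for *Socs2*.

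In WT regions, *Jak1* between striatum and prefrontal cortex also lost its call with DESeq2 size factors, with no filter and with 2 other blocks, and *Socs1* passed there with blocks by number or by genotype and number (adjusted p of 0.0428 and 0.0419). The order of levels per kb was the same in the authors' table.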
